A study of Mus musculus with 6 samples.

Results

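The Hox genes were read on 6 single-colour arrays of glial precursors from the neonatal mouse cerebellum. Of the 55681 probes that were not controls, 45 carried the name of a Hox gene of cluster A, B, C or D, and they covered 39 genes. The 38 genes described here, read by 43 probes, were 10 in Hoxa, 10 in Hoxb, 9 in Hoxc and 9 in Hoxd. The rule for members uses the gene name and no measured value, but it was set with earlier results of these data known. By the labels all cells came from wild-type CD1 mice of postnatal days 1 to 3, whereas the study's methods name another strain background (C57BL/6) and a slightly earlier age. Mice were of either sex, with the cerebella pooled before dissociation, and 50000 cells were taken per sample. The A+/G+ fraction carried both the astrocyte cell surface antigen ACSA-2, an epitope of the sodium pump subunit Atp1b2, and the glutamate transporter GLAST (Slc1a3), and it was isolated magnetically in a single step with anti-ACSA-2 beads. Those beads do not select for GLAST, and the study counted rare ACSA-2 cells without GLAST in this fraction. Both fractions are enrichments, not pure populations. The A-/G+ fraction was first depleted of cells with L1CAM, ACSA-2, CD45, PSA-NCAM or Ter119 on their surface and then selected for GLAST, so the fractions differ in handling as well as in surface markers. Each fraction has 3 biological replicates, and the 3 arrays of a fraction shared 1 slide, so slide and fraction cannot be told apart.

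Hox genes encode homeodomain transcription factors that give cells a position along the head-to-tail axis. Within each cluster the order of the genes on the chromosome follows the order of their expression borders, the 3' genes reaching furthest forward in the hindbrain. The cerebellum forms from the foremost hindbrain segment, the first rhombomere, which lies in front of the Hox domains. Hox proteins bind DNA together with TALE homeodomain cofactors of the Pbx, Meis and Pknox families, retinoic acid switches on 3' Hox genes, and Polycomb and Trithorax complexes hold their off and on states.

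The arrays differed in brightness. The 75th percentile of intensity was 332 to 334 on the A+/G+ arrays and 56.6, 113 and 251 on A-/G+ replicates 1, 2 and 3, and 26476 to 26655 probes against 18340 to 24730 probes were marked by the scanner software as well above background, here called detected. All 8 of the astroglial markers listed, Slc1a3 and Fabp7 among them, were detected on all 6 arrays. Being detected in both fractions, they cannot check the labels that separate the fractions. Signals are given below as quantile-normalized log2 intensities. A probe was called when the fractions' medians lay 4-fold or more apart with an adjusted p of at most 0.05 from limma with Benjamini-Hochberg adjustment over all probes.

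In A+/G+ cells 4 of the 38 Hox genes were detected on all 3 arrays, Hoxa2, Hoxa3, Hoxb2 and Hoxb4. In A-/G+ cells no Hox probe was detected on any array. Of all probes, 45.1% were detected on each A+/G+ array, 32.4% on each A-/G+ array, and 2.84% on each A+/G+ array but on no A-/G+ array, which is 6.29% of those detected throughout A+/G+. The same 4 genes were called higher in A+/G+, and 0 were called higher in A-/G+ by limma, with 0 at an unadjusted p under 0.05 by limma and 2 by the t-test of the study's methods. Over all probes, 1.53% were called toward A+/G+ and 0.399% toward A-/G+. By position in the cluster, 3 of 7 anterior genes (paralog groups 1 to 3), 1 of 15 central genes (groups 4 to 8) and 0 of 16 posterior genes (groups 9 to 13) were called.

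**Figure D1:**
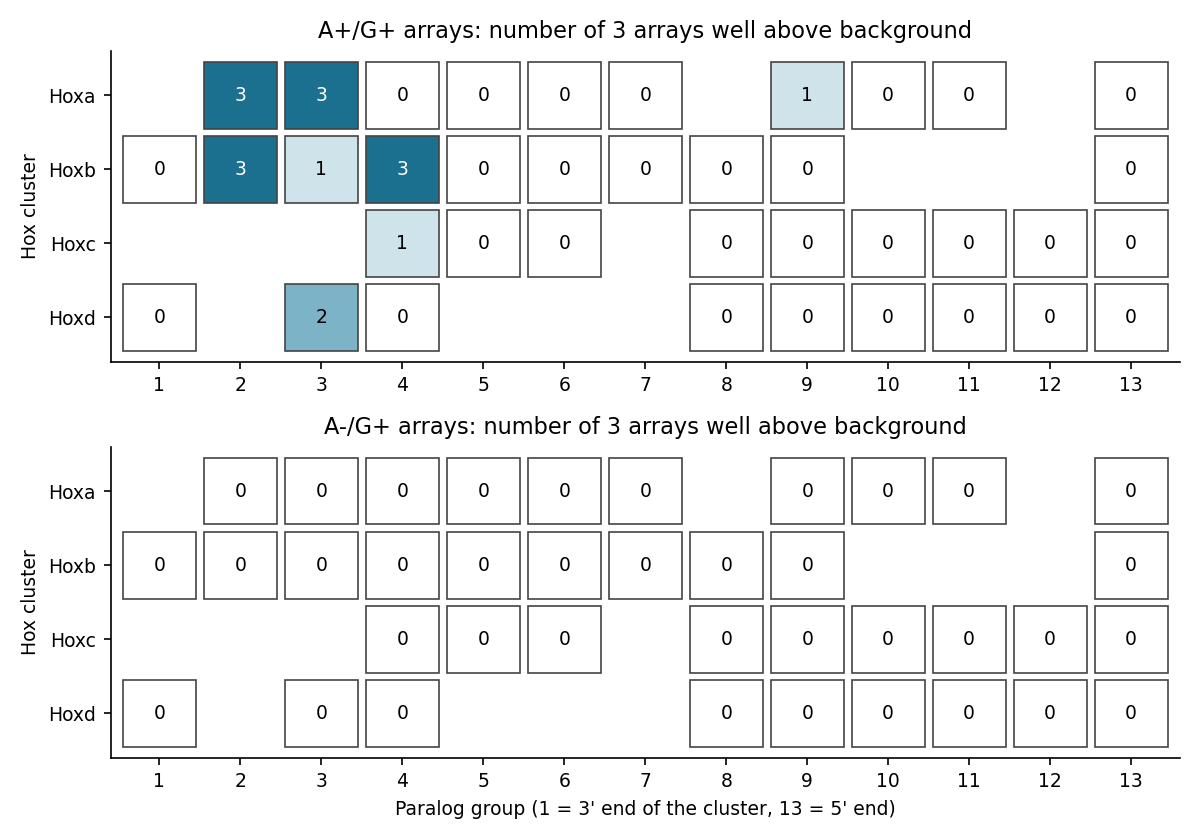
Number of arrays, of 3 in each fraction, on which a Hox gene had a detected probe (well above background), by cluster (rows) and paralog group (columns); an empty place has no gene described here. The 4 genes at 3 of 3 arrays lie toward the 3' ends of Hoxa and Hoxb in A+/G+, and every A-/G+ place is 0.

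In the Hoxa cluster, on chromosome 6, the called genes were the neighbours Hoxa2 and Hoxa3. Hoxa2, the Hox gene expressed furthest forward in the hindbrain, read 6.46, 6.44 and 6.35 in A+/G+ and 2.58, 3.28 and 1.96 in A-/G+. Hoxa3, a regulator of the caudal hindbrain and of pharyngeal organs, read 7.28, 6.95 and 7.15 in A+/G+ and 2.14, 1.89 and 2.78 in A-/G+. In both genes the A+/G+ values exceeded all A-/G+ values, and the A+/G+ replicates were close to each other. No A-/G+ signal of these genes was well above background, so their order among replicates is not read.

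Hoxb2 and Hoxb4 were the genes of the Hoxb cluster with the same pattern. Hoxb2, which is active in the hindbrain segments that form facial motor neurons, read 6.68, 6.56 and 6.59 in A+/G+ and 2.16, 2.03 and 3.38 in A-/G+. Hoxb4, whose hindbrain border lies further back, read 5.73, 5.24 and 6.05 in A+/G+ and 2.00, 1.99 and 3.11 in A-/G+. The fractions did not overlap for either gene. Of all probes, 12.7% had all A+/G+ values above the A-/G+ values and 24.3% the opposite, and of the 38 Hox genes 9 fell in the first class and 10 in the second.

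**Figure D2:**
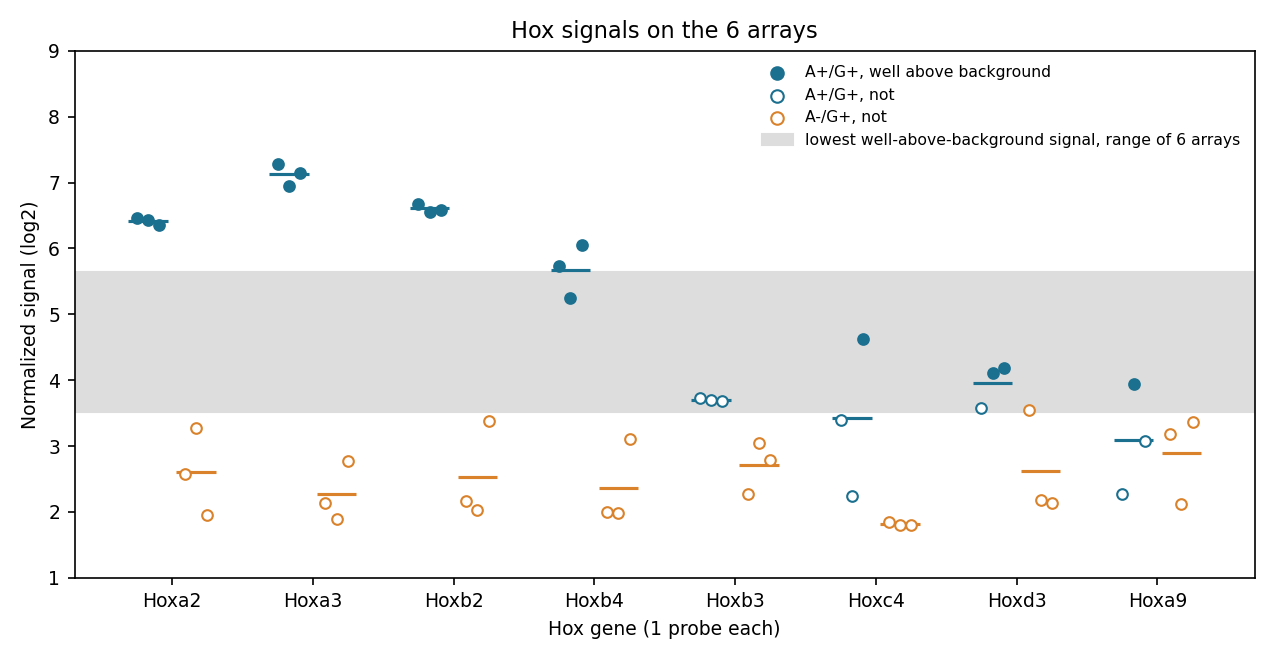
Normalized log2 signal of 8 Hox genes on each array, 3 A+/G+ (blue) and 3 A-/G+ (orange) per gene, with Hoxb3 shown by the probe with its higher mean over the 6 arrays; filled points were well above background, bars are means of 3 arrays, and the grey band spans the lowest well-above-background signal of the 6 arrays (3.52 to 5.64). Hoxa2, Hoxa3, Hoxb2 and Hoxb4 have 3 filled A+/G+ points each, and no A-/G+ point is filled.

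The difference in means (A+/G+ minus A-/G+, log2) was largest among these Hox genes for Hoxa3, 4.86 ± 0.26 (SE, adjusted p = 0.00366, limma). It was 3.81 ± 0.35 for Hoxa2 (adjusted p = 0.00845, limma). In the Hoxb cluster it was 4.08 ± 0.39 for Hoxb2 (adjusted p = 0.00946, limma) and 3.30 ± 0.40 for Hoxb4 (adjusted p = 0.0150, limma). These values rest on A-/G+ signals that were not well above background, so the fold is a lower bound, taken against the lowest signal well above background on each A-/G+ array or the probe's own signal if that was higher. By that bound the A+/G+ excess was at least 4.78-fold for Hoxa3, at least 3.33-fold for Hoxb2, at least 2.92-fold for Hoxa2 and at least 1.74-fold for Hoxb4. In bulk samples, fewer cells with the transcript and less transcript per cell cannot be told apart.

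The dim A-/G+ arrays touch this result, since replicates 1 and 2 detected fewer probes of any kind. On A-/G+ replicate 3, the brightest of the 3, the 4 Hox probes read 1.96 to 3.38, where the dimmest detected probe lay at 4.03. Without A-/G+ replicates 1 and 2 together, with the lone A-/G+ array assumed to vary like the A+/G+ arrays, the calls of Hoxa2, Hoxa3 and Hoxb2 remained, and Hoxb4 fell short (difference 2.56, adjusted p = 0.0634, limma). The spread so borrowed is too small for A-/G+, since SDs of the 4 genes were 0.06 to 0.41 in A+/G+ and 0.46 to 0.75 in A-/G+.

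With A+/G+ arrays left out singly, 2 genes lost their calls while their medians stayed about as far apart. Hoxb4 lost its call whichever A+/G+ array was left out, with adjusted p = 0.0671, 0.0543 and 0.0695 (limma) and medians 12.5, 14.8 and 11.2-fold apart without replicate 1, 2 or 3 (13.2-fold with all arrays). Hoxb2 lost it without replicate 2 (adjusted p = 0.0518, 22.2-fold, limma) and without replicate 3 (adjusted p = 0.0532, 22.0-fold, limma), against 21.5-fold with all arrays. Hoxa2 and Hoxa3 kept their calls whichever single array was left out, with adjusted p up to 0.0487 and 0.0241 (limma). With normexp background correction, which adds an offset of 50 to each intensity, the medians of the 4 genes were 1.84 to 3.29-fold apart, under the 4-fold limit, with adjusted p from 0.000451 to 0.00566 (limma).

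Each array probe is a 60-base DNA strand, and a stretch of 30 bases from the probe of each called gene is shown. The array's mm9 coordinates and strand give its place on the genome. The stretches are bases 1 to 30 of the probe, but bases 28 to 57 for Hoxb4, where the probe holds AATAAA. Capitals mark AATAAA, the hexamer that precedes many polyadenylation sites, which 6 of the 43 Hox probes (13.95%) and 10.06% of all probes hold.
Hoxa2, chr6:52112625-52112654, minus strand: tctatgtgattttcctgaaaaacaaaacag
Hoxa3, chr6:52119117-52119146, minus strand: gctagatttgttttgagagttttacattcc
Hoxb2, chr11:96215122-96215151, plus strand: tggtaaaactccttccaacgaaatctcagg
Hoxb4, chr11:96182912-96182941, plus strand: agtgacaacagaAATAAAtgtttggtttct

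Of these 4 genes, Hoxa3 had 2 probes, which disagreed. The second Hoxa3 probe, on chromosome 6 from 52149150 to 52149208, was detected on no array, with a difference of -0.05 ± 0.05. It lies past the Hoxa4 probe (52140287 to 52140346), and whether both Hoxa3 probes read the same transcript was not tested. With the mean of both probes, the Hoxa3 difference was 2.40 (adjusted p = 0.00306, limma), with medians 5.53-fold apart. By that measure Hoxa3 had the smallest difference of the 4 genes.

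Another 4 genes were detected on some A+/G+ arrays. Hoxd3, the paralog of Hoxa3 in the Hoxd cluster, read 3.57, 4.11 and 4.19 in A+/G+, the latter 2 detected, and 3.55, 2.18 and 2.13 in A-/G+. Hoxc4, the 3' gene of the Hoxc cluster, read 3.39, 2.25 and 4.62 in A+/G+, with only replicate 3 detected, and 1.85, 1.81 and 1.80 in A-/G+. Neither passed the test, with a difference of 1.33 ± 0.45 for Hoxd3 (adjusted p = 0.163, limma) and 1.60 ± 0.62 for Hoxc4 (adjusted p = 0.212, limma). Hoxa9, a posterior gene best known from blood stem cells, was detected on A+/G+ replicate 2 alone, at 3.94, and its difference of 0.21 ± 0.56 (adjusted p = 0.841, limma) turned to -0.22 without that array and to -0.82 when arrays were shifted to a common 75th percentile.

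Hoxb3, which lies between Hoxb2 and Hoxb4, was read by 2 probes that are 1828 bases apart. The probe that represents the gene was detected on no array. It read 3.73, 3.69 and 3.69 in A+/G+ and 2.28, 3.05 and 2.79 in A-/G+, a difference of 1.00 ± 0.21 (adjusted p = 0.0530, limma). The other probe, further along the gene, read 4.12, 3.64 and 3.43 in A+/G+, with replicate 1 detected, and 1.84, 1.86 and 1.84 in A-/G+. Its difference was 1.88 ± 0.19 (adjusted p = 0.0103, limma), with medians 3.46-fold apart, under the limit. Neither probe had overlapping fractions.

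The other 30 Hox genes were detected on no array, with means from 1.83 to 3.08 in A+/G+ and from 1.79 to 3.42 in A-/G+. Hoxb1 and Hoxd1, genes of paralog group 1, were among them, with differences of -0.20 ± 0.13 and -0.83 ± 0.70. Hoxd4, the paralog of Hoxb4 in the Hoxd cluster, had an adjusted p of 0.04998 and a difference of 0.84 ± 0.17 with medians 1.94-fold apart (limma), but the difference was -0.28 when arrays were shifted to a common 75th percentile. Over all 38 genes the median difference was -0.04, as it was over all probes (-0.04), and by region it was 1.33 for anterior, 0.00 for central and -0.17 for posterior genes.

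A weaker rule for detection, a signal above the local background of the spot, gave 10 Hox genes on all 3 A+/G+ arrays and 3 on all 3 A-/G+ arrays, against 56.3% and 45.8% of all probes. The 10 genes were the 8 detected on at least 1 A+/G+ array with Hoxb5 and Hoxd4, and 1 of them, Hoxa9, was posterior. The 3 genes in A-/G+ were Hoxa2, Hoxa9 and Hoxc10, of which Hoxa2 and Hoxa9 were also among the 10.

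**Figure D3:**
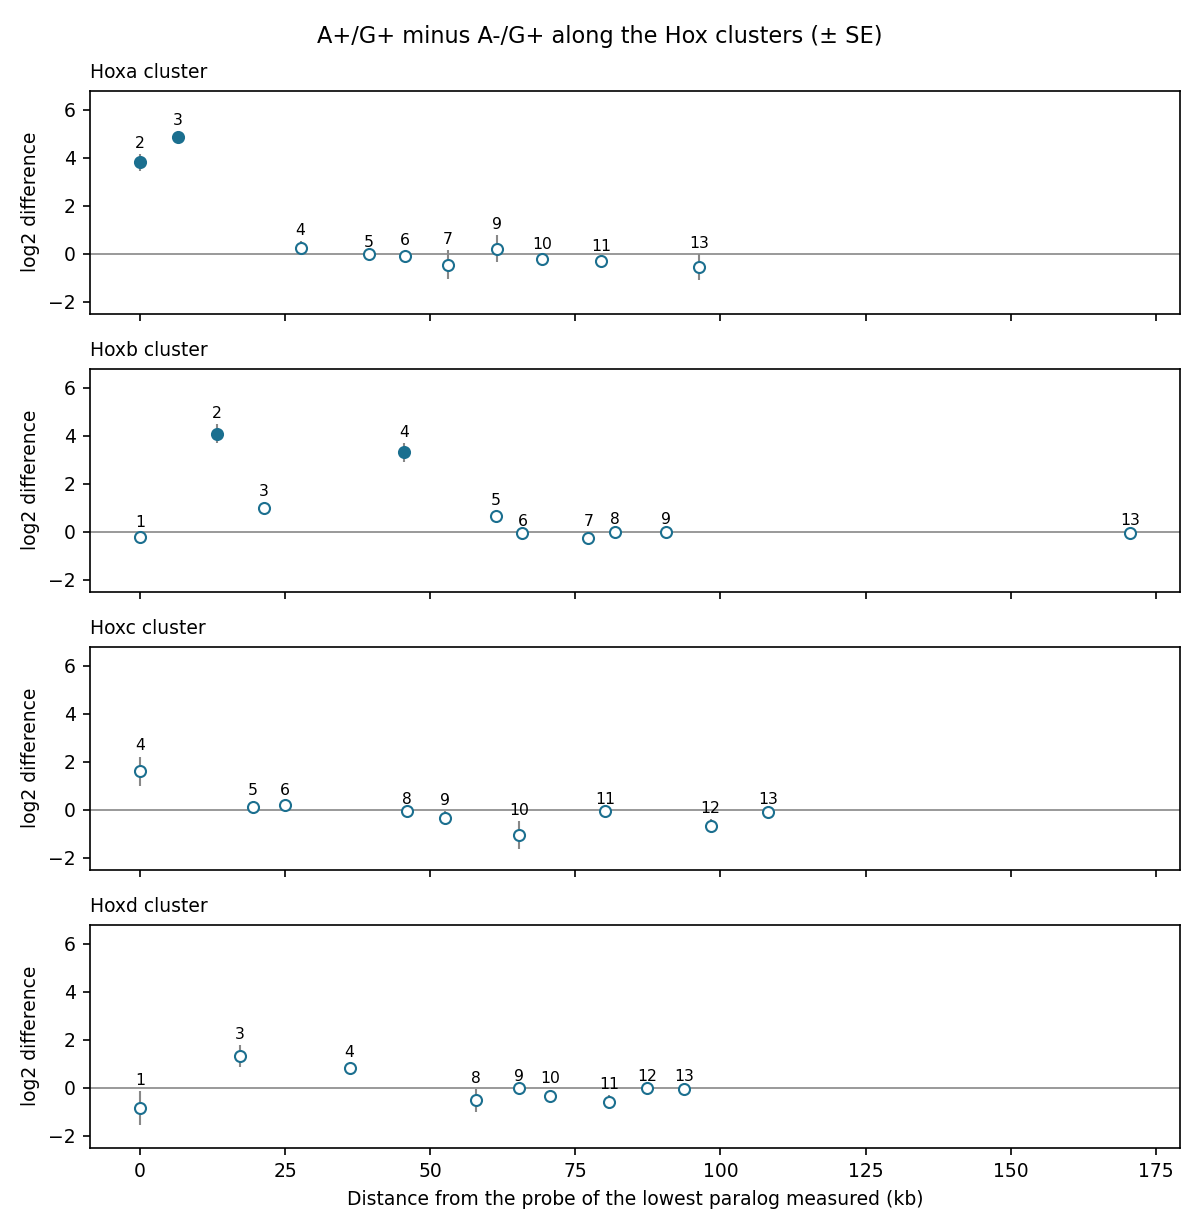
Difference in mean log2 signal (A+/G+ minus A-/G+, ± SE, 3 arrays per fraction) against the distance in kb from the probe of the lowest paralog described in each cluster, with paralog numbers above the points; filled points are genes detected on each A+/G+ array. Each gene is shown by its probe with the highest mean over the 6 arrays. In Hoxa the 2 filled points lie within 6.49 kb and Hoxa4, at 27.7 kb, is near 0. In Hoxb the filled points lie at 13.3 and 45.6 kb.

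Along the chromosome, with 1 probe per gene, the change was abrupt in the Hoxa cluster. The probes that represent Hoxa2 and Hoxa3 lie within 6.49 kb. Hoxa4, next in the cluster at 27.7 kb from Hoxa2, had a difference of 0.25 ± 0.28. The second Hoxa3 probe lies past that of Hoxa4 and was detected on no array, so the drop also falls between the 2 Hoxa3 probes. In the Hoxb cluster the order was interrupted: Hoxb1, at the 3' end, was not detected, Hoxb2 and Hoxb4 were, and Hoxb5, at 61.3 kb, had a difference of 0.67 ± 0.16 (adjusted p = 0.0708, limma). In the plot of differences along the clusters no Hoxb gene past Hoxb4 was called.

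Probes inside the clusters for transcripts other than the Hox genes, Hoxa11os among them, were then looked up by position. This step was added after the Hox values were seen. Of 38 such probes, 3 were detected on each A+/G+ array but on no A-/G+ array, against 2.84% of all probes. Of the 38, 2 were called toward A+/G+, against 1.53% of all probes. With so few probes these counts are a description only. The first, for the transcript ENSMUST00000155922, reads the plus strand on chromosome 6 from 52119107 to 52119166 and shares 40 bases with the Hoxa3 probe on the minus strand. It read 4.65, 4.20 and 4.52 in A+/G+ and 1.79, 1.78 and 1.78 in A-/G+, a difference of 2.67 ± 0.13 (adjusted p = 0.00316, limma). The second, AI448005 in the Hoxd cluster, on chromosome 2 from 74569698 to 74569757, lies between Hoxd4 and Hoxd3 and read 3.88, 4.75 and 4.54 in A+/G+ and 1.88, 1.91 and 1.89 in A-/G+ (difference 2.50 ± 0.24, adjusted p = 0.00946, limma). For both, the bright fraction lay under the detection limit of the dim arrays, so no fold is given. Another 2 of the 38 probes, in the Hoxb cluster, were detected on all 6 arrays. Their means were 13.7 and 12.5 in A+/G+ against 13.8 and 11.2 in A-/G+, and neither was called. The latter passed the adjusted p alone (difference 1.32 ± 0.27, adjusted p = 0.0480, limma), with medians 2.15-fold apart. The 5 probes for HOTAIR, a long non-coding RNA of the Hoxc cluster, were detected on no array. The flanking homeobox genes Evx1 and Evx2 were not called.

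RefSeq promoters, from 250 bases before to 50 after the transcription start in GRCm38.p6, were available here for 22 of the 38 Hox genes, in 24 windows. The 250 upstream bases are shown for Hoxa2 and Hoxb4, called genes of either cluster. Capitals mark, on either strand, TGATNNAT, a sequence bound by Hox and Pbx proteins, TGACAG, bound by Meis proteins, and AGGTCA, the half-site of retinoic acid receptors.
Hoxa2, chr6:52164832-52165081, minus strand: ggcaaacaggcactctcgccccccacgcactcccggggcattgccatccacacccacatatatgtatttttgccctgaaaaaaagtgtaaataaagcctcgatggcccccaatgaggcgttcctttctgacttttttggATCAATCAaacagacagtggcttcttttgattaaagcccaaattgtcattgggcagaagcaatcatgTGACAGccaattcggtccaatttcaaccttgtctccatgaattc
Hoxb4, chr11:96318017-96318266, plus strand: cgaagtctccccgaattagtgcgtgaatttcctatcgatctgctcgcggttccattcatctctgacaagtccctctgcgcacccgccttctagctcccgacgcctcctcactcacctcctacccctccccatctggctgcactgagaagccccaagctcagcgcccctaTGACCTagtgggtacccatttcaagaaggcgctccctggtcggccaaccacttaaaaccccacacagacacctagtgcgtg
TGATNNAT lay in 4 of the 24 Hox windows and in 7.683% of all 32851 windows, TGACAG in 2 (Hoxa2 and Hoxa3) and 15.86%, and AGGTCA in 6 and 14.02%. Such short motifs occur widely and the matches are a description only. The Hoxa2 window was the Hox window with both a Hox-Pbx and a Meis match.

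The TALE cofactors were present in both fractions. All 8 listed here were detected on each A+/G+ array and 7 on each A-/G+ array. Of the 8, 1 was called, Meis2, toward A+/G+, against 1.53% of all probes. Meis2 read 8.83, 8.25 and 8.53 in A+/G+ and 4.20, 2.36 and 4.61 in A-/G+, where 1 array detected it, a difference of 4.81 ± 0.64 (adjusted p = 0.0187, limma). Pbx3, Pknox1 and Pknox2 passed the adjusted p alone, lower in A+/G+ by less than 2-fold, against 4.64% of all probes that passed it in that direction. Meis1 had a difference of -0.66 and did not pass the test.

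Of 12 enzymes and receptors of retinoic acid, 2 were called higher in A+/G+, both enzymes that make it, against 1.53% of all probes. Aldh1a1 read 10.33, 10.67 and 10.29 in A+/G+ and 8.45, 7.58 and 6.46 in A-/G+ (difference 2.93 ± 0.53, adjusted p = 0.0375, limma). Aldh1a3 read 4.22, 4.65 and 4.03 against 1.82, 1.81 and 2.92 and was detected in A+/G+ alone. Its A+/G+ signals lay under the lowest detected signals of A-/G+ replicates 1 and 2 (5.64 and 4.95), so no fold is given. Aldh1a2, the main synthetic enzyme of the embryo, had a difference of 2.72 (adjusted p = 0.0523, limma). Cyp26b1, which breaks retinoic acid down, was lower in A+/G+ by the adjusted p alone (difference -1.66, adjusted p = 0.00986, limma), and Cyp26a1 and Cyp26c1 were detected on no array. Among the receptors, Rarg was higher in A+/G+ (difference 0.70, adjusted p = 0.00893, limma) and Rxrg lower (difference -1.35, adjusted p = 0.0490, limma), both by the adjusted p alone. Of all probes, 4.65% passed the adjusted p higher in A+/G+ and 4.64% lower.

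Genes that set up the first rhombomere and its border with the midbrain gave 1 call of 13, toward A+/G+, against 1.53% of all probes. Gbx2, which acts on the hindbrain side of that border, read 10.04, 10.24 and 10.02 in A+/G+ and 6.92, 6.59 and 5.97 in A-/G+ (difference 3.61 ± 0.26, adjusted p = 0.00553, limma). En2, Irx1 and Irx2 passed the adjusted p alone and were lower in A+/G+, En2 with a difference of -1.42 (adjusted p = 0.0116, limma). Of all probes, 4.64% passed the adjusted p in that direction. Hindbrain regulators upstream of Hox genes gave 0 calls of 6 by limma (0 at an unadjusted p under 0.05, and 0 calls by the t-test), with Egr2 detected on all 6 arrays at a difference of 0.75 and Cdx1, Cdx2 and Cdx4 on none. Polycomb proteins gave 0 calls of 15 and Trithorax proteins with the demethylases Kdm6a and Kdm6b 0 of 10, with Ezh2, Jarid2, Cbx2 and Kmt2b lower in A+/G+ by the adjusted p alone. Both families were present in both fractions, 13 and 12 of the Polycomb genes on all arrays of A+/G+ and A-/G+.

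**Figure D4:**
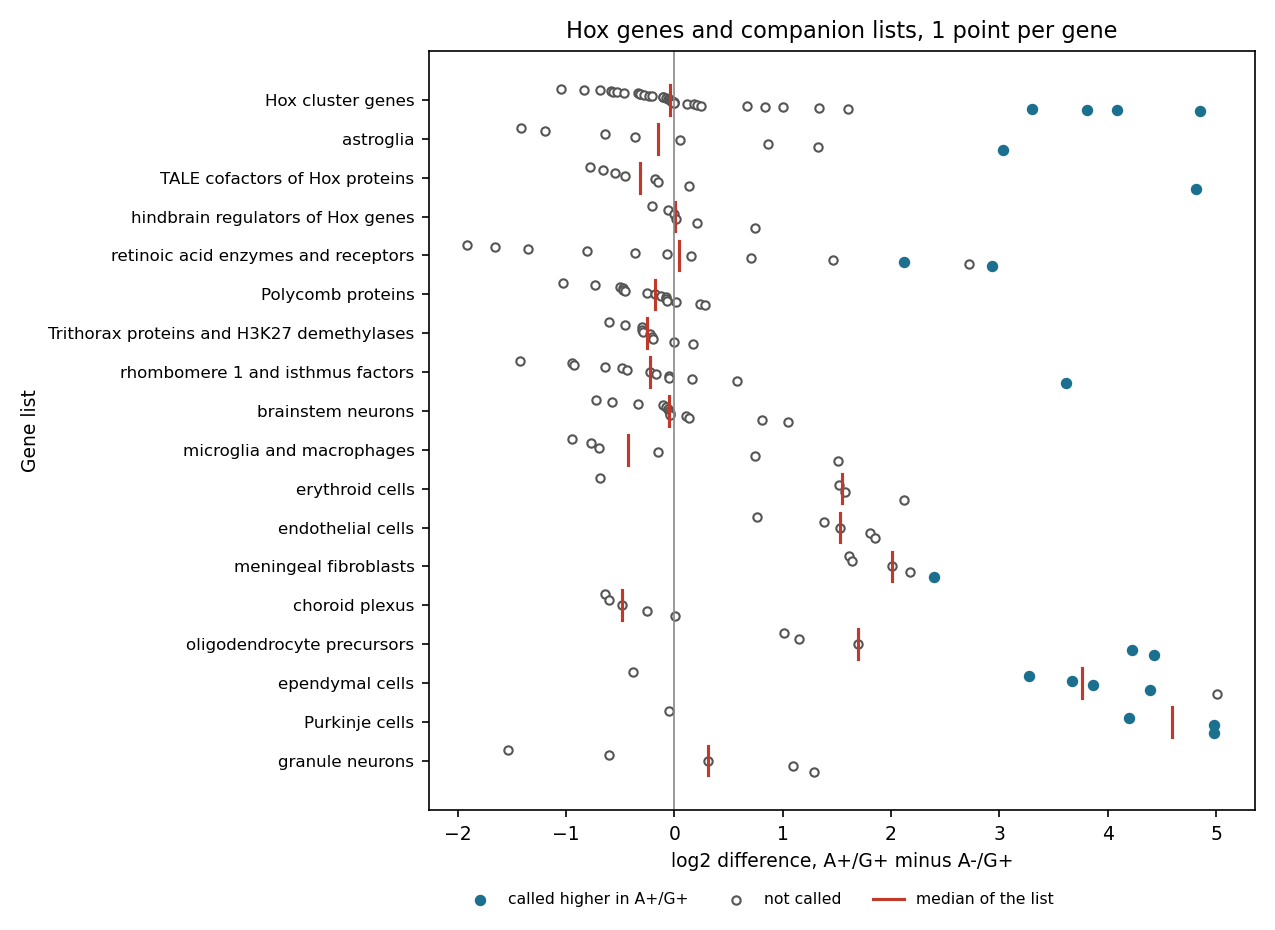
Difference in mean log2 signal (A+/G+ minus A-/G+) for each Hox gene and each gene of 17 other lists, 1 point per gene, with Hoxb3 shown by the probe with its higher mean over the 6 arrays; filled points were called higher in A+/G+ and red bars are list medians. The 4 called Hox genes stand at 3.30 to 4.86 while the Hox median is -0.04, and no gene of these lists was called higher in A-/G+.

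Hox genes are also used by cells of the brainstem next to the cerebellum, and markers of brainstem neurons and of other cell types were therefore read in both fractions. No marker of brainstem glia was listed, so these values do not cover such cells. Of the 13 markers of brainstem neurons reported, 8 were detected on no array, Phox2a, Isl1, Chat, Tph2, Slc6a4, Fev, Dbh and Slc6a2. The other 5 (Tlx3, Lbx1, Slc5a7, Slc18a3 and Th) were detected on at least 1 array, with differences from -0.72 to 1.05. Slc5a7 and Th were detected on 3 A+/G+ arrays and 1 A-/G+ array, and Tlx3 on 2 and 1. Slc18a3 was detected on 1 array of each fraction and Lbx1 on all 6 arrays. By limma 0 of the 13 were called, with 1 at an unadjusted p under 0.05, and the methods' t-test called 0. The summed intensity of the 13 was 158 to 255 in A+/G+ and 219 to 363 in A-/G+. The part of brainstem cells in the Hox result was not tested.

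Markers of other cells also differed between the fractions, where 1.53% of all probes were called higher in A+/G+. Those called higher in A+/G+ were 3 of 4 Purkinje cell markers (Calb1, Pcp2 and Car8), 4 of 6 ependymal markers (Foxj1, Rsph1, Dnah5 and Tmem212), 2 of 5 markers of oligodendrocyte precursors (Olig1 and Olig2), 1 of 5 of meningeal fibroblasts (Foxc1) and 1 of 8 of astroglia (Gfap). The astroglial list had a median difference of -0.15. By the adjusted p alone S100b was higher in A+/G+ (difference 1.33), and Hopx (-1.42) and Aldh1l1 (-0.64) were lower, while Slc1a3 at -1.19 did not pass. Endothelial, erythroid, microglial, choroid plexus and granule neuron lists gave 0 calls by limma and by the t-test, with 1, 3, 1, 0 and 2 genes at an unadjusted p under 0.05 by limma. Erythroid markers, among them Hbb-b1 with medians 6.99-fold apart, had a summed intensity of 8800.04 to 16092 in A+/G+ against 2542 to 7789.96, without overlap. Endothelial markers summed to 7452 to 11259.7 against 1518 to 7732, with overlap. Their median difference was 1.53, and Cdh5 passed the adjusted p alone (difference 1.80, adjusted p = 0.0182, limma). Sums also overlapped for microglia (142 to 786 against 473 to 605) and choroid plexus (23089.5 to 37090.2 against 22949 to 55177). They were lower in A+/G+ for granule neurons (17106 to 19990.4 against 24245 to 30698). Of the lists with calls, the summed intensity was 1389 to 4283 against 63.7 to 95.8 for Purkinje cell markers and 12590.0 to 15304 against 1117 to 2242 for oligodendrocyte precursors. It was 64317 to 77732 against 11493 to 34229.6 for meningeal fibroblasts and, with overlap, 5051 to 7211 against 1639 to 5799 for ependymal cells. The part of these cells in the Hox result was not tested.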

How the data were processed

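Gene expression was measured in 6 samples by single-colour Agilent arrays. Per the labels, polyadenylated RNA was T7-amplified and Cy3-labelled. The authors scanned the arrays and deposited Feature Extraction (version 10.7.3.1) intensity values, with probes placed on mm9 per the file headers, which are background-corrected but not normalized between arrays, and a table of log2 values, used here as an alternative. Control spots and outlier spots were left out, log2 intensity was quantile-normalized and spots of 1 probe were averaged. Fractions were compared with limma (lmFit and eBayes) over 55681 probes with Benjamini-Hochberg adjustment. The test was tested on simulated data. Fold limits follow the study's methods, with limma in place of their t-test. With 3 arrays per fraction, the number of arrays limits the precision. A gene is represented by its probe with the highest mean over the 6 arrays. Named were all Hox genes with a probe well above background on at least 1 array, and called members of the other lists. Some genes, 1 Hox gene and 3 genes of the other lists, are not reported here and are left out of all counts of members and lists. The members and lists were chosen with earlier results of these data known. Motifs were searched on both strands of promoters. Alternatives were other normalizations, background correction, tests, filters, probe choice, detection rules, a replicate block and leaving out arrays. Versions were R 4.3.3 and limma 3.58.1.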

Additional observations from a re-analysis of the deposited data

How the results depend on the processing

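All 4 Hox calls in A+/G+ remained with the 75th percentile shift, the authors' table, the filter on dim probes, the t-test of the study's methods, trended and robust variance, and outlier spots kept, and no alternative called a Hox probe higher in A-/G+. The 4 calls became 0 with normexp background correction, where 234 and 48 of all probes were called toward A+/G+ and A-/G+ (851 and 222 in the reported analysis), and 2 to 4 when single arrays were left out, with 340 to 1458 and 77 to 490 of all probes. The t-test gave 487 and 121, medians at least 2-fold apart 1797 and 1340, and no limit on the medians 2589 and 2583. The 75th percentile shift moved the median difference of all probes to -1.02 (from -0.04) and the split of calls to 604 against 938, so that 39.2% rather than 79.3% of calls were higher in A+/G+. Of the 5 Hox genes past the adjusted p, 1 (Hoxd4) changed sign under another scaling, and of the 35 such genes of the other lists 0 did. With single arrays left out, Hoxa9 ranged from -0.22 to 0.62; it turned to -0.82 under that shift, to -0.22 without A+/G+ replicate 2, to -0.18 without A-/G+ replicate 2 and to -0.27 without A-/G+ replicates 1 and 2 together. Hox genes detected on all arrays of a fraction were 10 in A+/G+ and 3 in A-/G+ by the weaker detection rule, and 8 in A+/G+ on at least 1 array. The cause of these changes was not tested.

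Deviations of same-numbered arrays correlated at 0.20, 0.11 and -0.11 over probes. A+/G+ replicate 1 correlated best with its own number, but not every array did. With so few arrays per fraction these deviations depend on each other, so the correlations cannot decide whether same-numbered samples were paired. With the replicate block, limma called 0 probes in either direction (at an unadjusted p under 0.05, 5354 toward A+/G+ and 6317 toward A-/G+), 0 of them Hox probes, and the 4 Hox genes had adjusted p from 0.0630 to 0.0724.

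The dim A-/G+ arrays limit detection: the lowest signal well above background was 3.52 to 3.61 in A+/G+ and 4.03 to 5.64 in A-/G+, so a Hox transcript under those levels was not detectable in A-/G+ by that rule.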
